A study of Mus musculus with 4 samples.

Results

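The Hox genes encode the homeodomain transcription factors that give cells their position along the body axis, and in the mouse they lie in 4 clusters, HoxA to HoxD. The members described here were all protein-coding genes of the mm10 GENCODE annotation with a Hoxa, Hoxb, Hoxc or Hoxd symbol, which gave 39 of the 21755 protein-coding genes considered. They comprised 11 genes of HoxA, 10 of HoxB, 9 of HoxC and 9 of HoxD, with 55 annotated transcription start sites (TSSs). RBPJ is the nuclear DNA-binding protein to which the cleaved Notch receptor attaches to switch on genes, and Notch signalling and Hox genes are used together in the embryo, for example in the segmenting body axis. Within a cluster the genes stand in the order of their paralog groups, numbered 1 to 13, and genes of 1 group in different clusters are close relatives. Polycomb complexes are known for holding unused Hox clusters silent, and Trithorax-type complexes that contain MLL proteins for keeping used Hox genes active.

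The study profiled RBPJ by HT-ChIPmentation, a chromatin immunoprecipitation in which sequencing adapters are inserted on the beads, in alveolar macrophages (AMs) of adult WT C57BL/6J mice obtained by bronchoalveolar lavage and cell sorting. The groups were RBPJ (n = 2 libraries, replicates 1 and 2) and Input (n = 2 libraries), all of genotype WT and without a treatment in the labels. Each RBPJ library had its own list of peaks called against input, with 106228 peaks for replicate 1 and 47224 for replicate 2, and the inputs entered only through that peak calling. The labels do not say whether the 2 libraries came from separate animals, so their spread may be technical. A consensus region was a merged stretch of overlapping peaks with at least 1 peak of each library, and there were 25454 of them. Of the AM markers, 11 of 12 had a consensus region within 1 kb of a TSS, against 33.7% of all protein-coding genes. Siglecf, Pparg and Chil3 were among the 11, while Marco had a peak of replicate 1 only. The count was 0 of 8 T and B lymphocyte markers and 1 of 6 alveolar type II cell markers (Etv5). It was 1 of 5 for neutrophil markers (S100a8) and 1 of 5 for endothelial markers (Pecam1).

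No Hox gene had an RBPJ consensus region within 1 kb of a TSS. The count was 0 of 39 Hox genes, which allows a share of up to 7.69% by the limit of 3 counts (Wilson 95% upper bound, 8.97%), against 33.7% of all protein-coding genes. Limits and intervals for these shares treat the genes as independent. Genes of 1 cluster are neighbours, so they may be too narrow. In replicate 1 alone, 2 of 39 Hox genes had a peak within 1 kb, namely Hoxa5, a gene required for lung and airway development, and Hoxa9, a gene of blood stem and progenitor cells. That share was 5.13% (Wilson 95% interval, 1.42% to 16.9%), against 46.1% of all genes. In replicate 2 alone it was 1 of 39, namely Hoxc8, a gene that patterns the thoracic skeleton, for a share of 2.56% (0.454% to 13.2%), against 37.5% of all genes. No Hox gene was found by both libraries. Just outside the window stood Hoxd8 and Hoxd9, whose nearest replicate 2 peaks ended 1004 and 1054 bp from the TSS, and Hoxd10 with a replicate 1 peak at 1307 bp.

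The sequences of 5 of the 14 cluster peaks are shown, namely 1 peak for each Hox gene with a peak within 1 kb and the strongest cluster peak of each library by −log10 q. All are from GRCm38 (mm10), plus strand, and capitals mark the 21 bases centred on the summit where the peak holds them. For Hoxa5 the printed stretch is the part of the peak up to the untranslated region (chr6:52204291-52204350). The Hoxa9 peak shown, the one 806 bp upstream, lies in an intron (chr6:52228142-52228263), the Hoxc8 peak upstream of that gene in an intron of Hoxc5 (chr15:102989867-102990039), the Hoxd8 peak in an intron and with the highest fold in any cluster (chr2:74706156-74706299), and the Hoxa11 peak in an intron of the antisense gene Hoxa11os (chr6:52247408-52247581).
Hoxa5, replicate 1: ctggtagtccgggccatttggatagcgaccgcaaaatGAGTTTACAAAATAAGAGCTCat
Hoxa9, replicate 1: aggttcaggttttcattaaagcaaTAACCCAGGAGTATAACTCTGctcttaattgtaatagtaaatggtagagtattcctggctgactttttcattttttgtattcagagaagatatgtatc
Hoxc8, replicate 2: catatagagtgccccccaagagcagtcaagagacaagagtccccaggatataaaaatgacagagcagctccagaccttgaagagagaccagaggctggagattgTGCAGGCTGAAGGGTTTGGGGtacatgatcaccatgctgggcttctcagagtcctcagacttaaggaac
Hoxd8, replicate 2: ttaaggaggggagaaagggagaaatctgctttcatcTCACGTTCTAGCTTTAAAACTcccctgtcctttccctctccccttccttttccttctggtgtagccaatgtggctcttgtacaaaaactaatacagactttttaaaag
Hoxa11, replicate 1: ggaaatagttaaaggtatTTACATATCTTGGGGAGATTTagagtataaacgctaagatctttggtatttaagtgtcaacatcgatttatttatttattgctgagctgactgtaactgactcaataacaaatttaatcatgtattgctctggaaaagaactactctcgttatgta

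The clusters as a whole held no consensus region and a few peaks of single libraries. A cluster was taken from the lowest start to the highest end of its Hox genes: HoxA on chr6:52155590-52260880, HoxB on chr11:96194316-96368256, HoxC on chr15:102921103-103036852 and HoxD on chr2:74668310-74765142. Together the 4 clusters span 491.8 kb. They held 0 consensus regions, for which a count of 0 allows up to 6.10 regions per Mb (exact Poisson 95% upper bound, 7.50), against 9.61 per Mb of the genome. Replicate 1 placed 10 peaks in the clusters, or 20.3 per Mb (exact Poisson 95% interval, 9.75 to 37.4), against 40.1 per Mb genome-wide. Replicate 2 placed 4, or 8.13 per Mb (2.22 to 20.8), against 17.8 per Mb, a value inside the interval. The peaks covered 0.254% of the clusters in replicate 1, against 1.34% of the genome, and 0.123% in replicate 2, against 0.544%. Intervals and limits of this kind cover counting error over regions or genes only.

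The 4 clusters differed in what single libraries found. HoxA had 7 peaks in replicate 1 and 1 in replicate 2, HoxB had 1 and 0, HoxC had 0 and 1, and HoxD had 2 and 2. HoxA in replicate 1 thus reached 66.5 peaks per Mb (26.7 to 137), the only cluster of that library with a density above that of the genome, whose value lay inside the interval. Its peaks were short, so that they covered 0.838% of HoxA, against 1.34% of the genome. HoxD in replicate 2 had 20.7 per Mb (2.50 to 74.6), against 17.8 per Mb of the genome. No difference between clusters was tested.

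**Figure D1:**
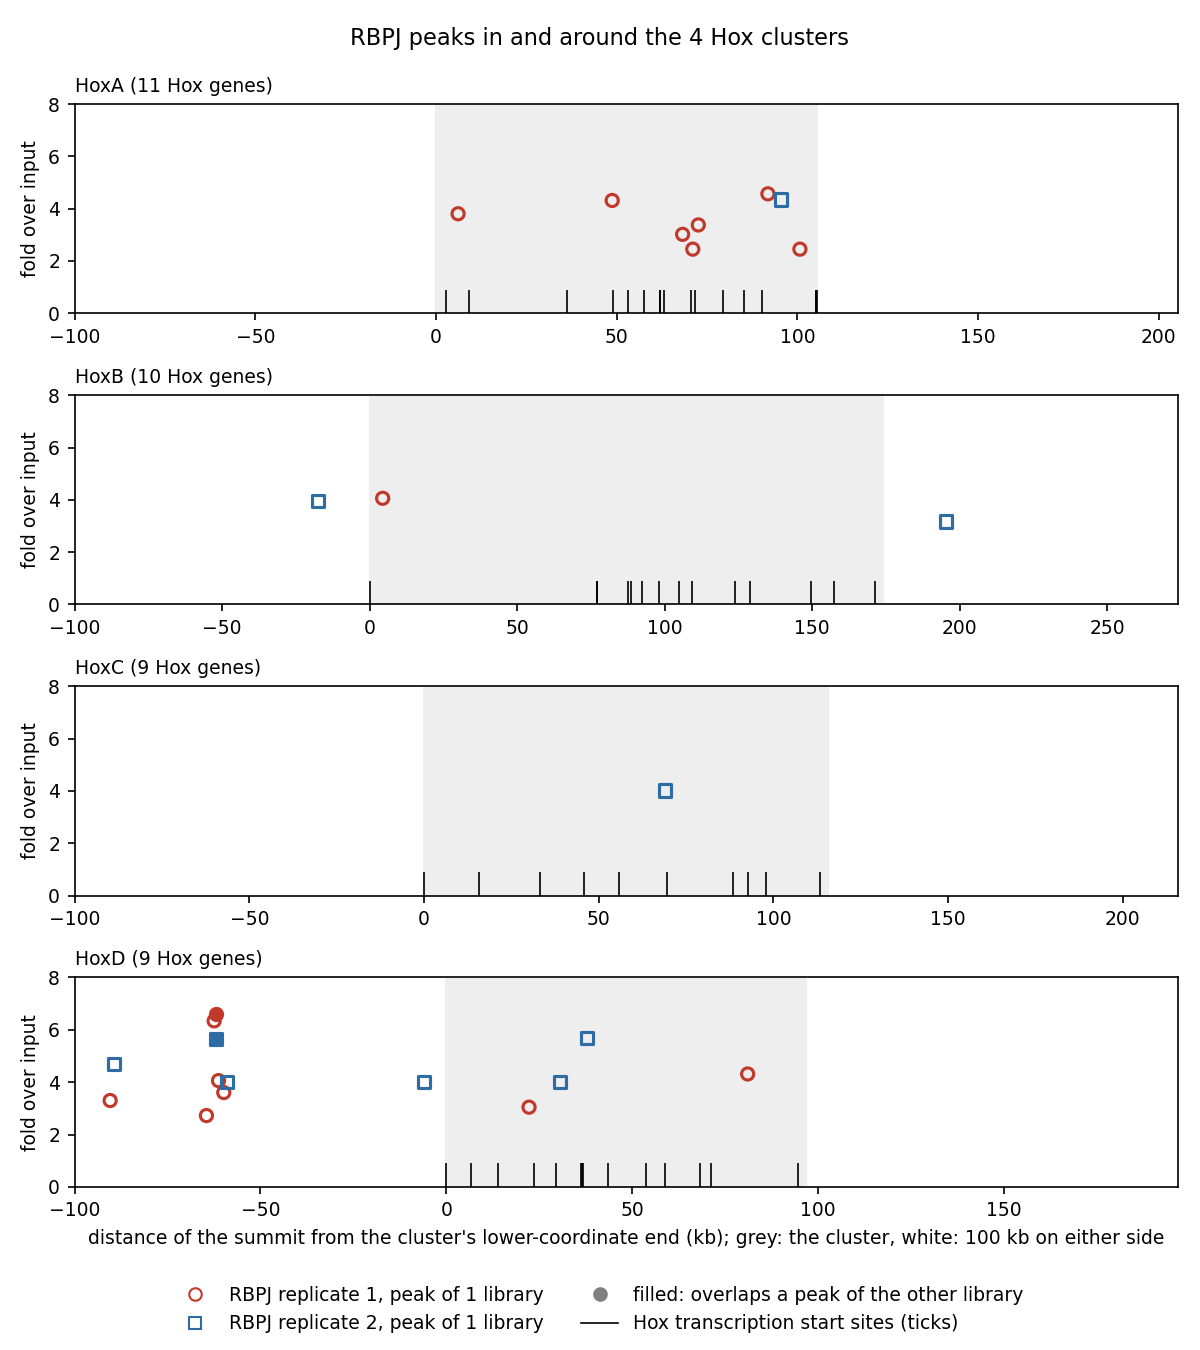
Fold over input (vertical axis) of each RBPJ peak against the distance of its summit from the lower-coordinate end of the cluster in kb (horizontal axis), for HoxA, HoxB, HoxC and HoxD. Circles are peaks of replicate 1, squares peaks of replicate 2, filled symbols peaks that overlap the other library, ticks Hox TSSs, and grey shading the cluster. All 14 symbols inside the clusters are open, and the filled pair of summits stands 62.0 kb outside HoxD.

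In HoxA, replicate 1 peaks were spread from the Hoxa2 to the Hoxa13 end. The peak nearest Hoxa2, a gene of the hindbrain and pharyngeal arches, had a fold of 3.81 and a −log10 q of 3.96 and its summit lay in an intron of Hotairm1, an antisense RNA known from human myeloid cells. The Hoxa5 peak had a fold of 4.31 and a −log10 q of 5.34, with the summit 249 bp downstream of the TSS in the coding exon, where introns of Hoxa3, Gm28308 and Hoxaas3 also run. Hoxa9 had 3 separate peaks, more than any other Hox gene. Their summits lay 806 bp upstream of a TSS (fold 3.38), 454 bp upstream of another (fold 2.45) and 2362 bp downstream in an untranslated exon (fold 3.02). The peak 1626 bp upstream of Hoxa11, a gene of the limb and reproductive tract, was the strongest of replicate 1 in any cluster, with a fold of 4.57 and a −log10 q of 6.07. Toward Hoxa13, a gene of the hand, foot and genital tract, a last peak had a fold of 2.45 and a −log10 q of 1.40.

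The only HoxA peak of replicate 2 lay 5188 bp upstream of Hoxa11, between genes, with a fold of 4.35 and a −log10 q of 3.79. It was 3378 bp from the Hoxa11 peak of replicate 1, the closest approach of the 2 lists inside any cluster. In HoxB the only peak lay 4402 bp downstream of the TSS of Hoxb13, a gene of the prostate and tail, in replicate 1 (fold 4.06, −log10 q 4.64). In HoxC the only peak lay 626 bp upstream of Hoxc8 in replicate 2 (fold 4.02, −log10 q 3.09). In HoxD, replicate 1 had a peak 1362 bp upstream of Hoxd10 (fold 3.04) and 1 in an exon of the long noncoding RNA Haglr, 9773 bp downstream of a Hoxd3 TSS (fold 4.31, −log10 q 5.34). Replicate 2 had peaks in introns of Hoxd9 (fold 4.02) and Hoxd8 (fold 5.69, −log10 q 6.95), and 54.2% of the bases of that Hoxd8 peak were repeat-masked. The posterior HoxD genes pattern the digits and genitalia, and Hoxd8 and Hoxd9 the trunk.

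The cluster peaks were weak to middling for their own lists. Their median fold was 3.59 in replicate 1, against 4.06 over the whole list, and 4.18 in replicate 2, against 4.35. Their median width was 119 bp in replicate 1, against 189 bp, and 157 bp in replicate 2, against 202 bp. A −log10 q of 5 or more was reached by 3 of the 10 peaks of replicate 1, against 52.3% of its list, and by 1 of the 4 of replicate 2, against 38.2%. The Hoxa11 peak of replicate 1 stood above 57.6% of its list by −log10 q, and the Hoxd8 peak of replicate 2 above 76.5%. None of the cluster peaks overlapped a peak of the other library, 0 of 10 for replicate 1 against 26.0% of its whole list, and 0 of 4 for replicate 2 against 66.3%. Among all peaks in the same range of −log10 q as the cluster peaks, 10.2% overlapped the other library in replicate 1 and 67.3% in replicate 2.

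**Figure D2:**
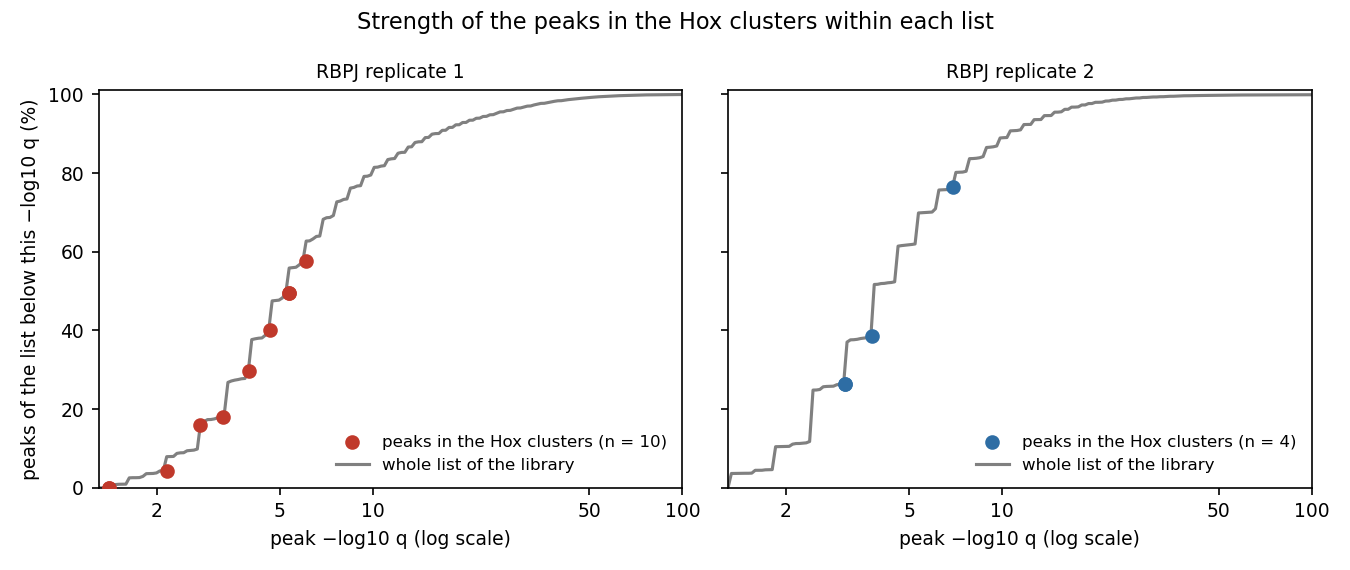
Each point is a peak inside a Hox cluster, placed by its −log10 q (horizontal log axis) and by the percentage of its library's list with a lower value (vertical axis). The line gives the percentage of the whole list at or below each value, so a point whose value many peaks share lies under the line. Peaks with equal values coincide. The 10 peaks of replicate 1 end at a −log10 q of 6.07 and the 4 peaks of replicate 2 at 6.95.

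The Hox genes were also far from the nearest consensus region. The distance from a Hox TSS ran from 61.8 kb for Hoxd13 to 289.2 kb for Hoxb1, with a median of 194.9 kb, against a median of 22.7 kb over all genes. More than 100 kb separated 33 of 39 Hox genes from a consensus region, against 28.7% of all genes. The median was 199.9 kb for HoxA, 221.5 kb for HoxB, 186.2 kb for HoxC and 91.2 kb for HoxD. The 6 genes within 100 kb were all of HoxD, from Hoxd13 to Hoxd8, in the order of the cluster because they shared the same nearest region. Genes of 1 cluster share their surroundings, so the 39 distances are not independent values.

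For single lists the distances were shorter. In replicate 1 the median was 22.2 kb for Hox genes, against 2.96 kb for all genes, and 14 of 39 Hox genes lay over 100 kb from a peak, against 19.6%. Those 14 were all 9 HoxC genes and Hoxb1 to Hoxb5, whose distances ran from 104.8 kb for Hoxb5 to 167.0 kb for Hoxb1. Every HoxA gene was within 12.5 kb of a replicate 1 peak, with a median of 4.27 kb. In replicate 2 the median was 28.9 kb for Hox genes, against 10.8 kb for all genes. There 2 of 39 Hox genes (5.13%), Hoxb7 and Hoxb8, lay over 100 kb from a peak, a lower share than the 16.6% of all genes. The libraries placed their nearest peaks differently by cluster. HoxC had a median distance of 168.8 kb in replicate 1 and 23.8 kb in replicate 2, while HoxA had 4.27 kb and 37.8 kb.

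**Figure D3:**
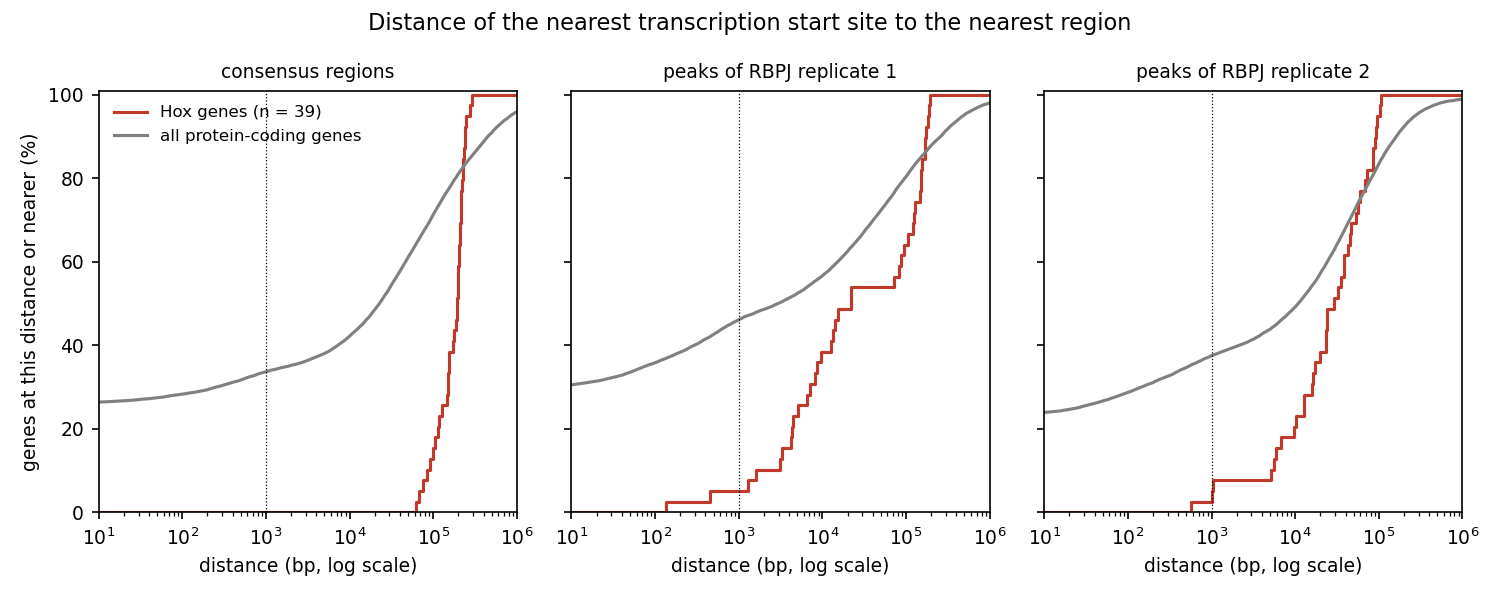
Percentage of genes (vertical axis) whose nearest TSS lies at or within a given distance in bp (horizontal log axis) of a consensus region, a peak of replicate 1 or a peak of replicate 2, for the 39 Hox genes (red) and all protein-coding genes (grey). The dotted line marks 1 kb. No Hox gene enters the consensus curve before 61.8 kb.

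The 100 kb on either side of the clusters, 800.0 kb in all, held 1 consensus region, 6 peaks of replicate 1 and 6 of replicate 2. That is 1.25 consensus regions per Mb (exact Poisson 95% interval, 0.0317 to 6.96), against 9.61 per Mb of the genome. The region lay beyond Hoxd13, 61.8 kb from the edge of HoxD, at chr2:74606015-74606547 between genes. Its fold was 6.60 in replicate 1 and 5.67 in replicate 2, with a −log10 q of 12.7 and 8.31, so that both libraries were stronger here than at any peak inside a cluster by −log10 q. The nearest protein-coding gene was Lnpk, which encodes a protein of endoplasmic reticulum junctions, with its TSS 27331 bp away. The 201 bases around the replicate 1 summit (chr2:74606179-74606379, plus strand, the 21 bases at the summit in capitals) are shown because this is the only stretch within 100 kb of a Hox cluster on which both libraries met.
HoxD-side consensus region: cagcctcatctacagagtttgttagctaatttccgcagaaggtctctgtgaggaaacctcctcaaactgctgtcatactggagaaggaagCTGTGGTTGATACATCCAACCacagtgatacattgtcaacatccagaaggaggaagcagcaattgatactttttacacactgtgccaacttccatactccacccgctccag

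All 6 flanking peaks of replicate 1 and 4 of the 6 of replicate 2 lay on that side of HoxD, and the other 2 of replicate 2 lay on either side of HoxB. The replicate 2 peaks nearest to a cluster were 1 lying 6000 bp from the HoxD edge, 2753 bp from the start of Evx2, and 1 lying 17386 bp beyond Hoxb13. Of the genes that start in the flanks, Evx1 and Evx2, homeobox genes that sit at the ends of HoxA and HoxD, had no peak of either list within 1 kb, nor did Calcoco2, Ttll6, Skap1 and Mtx2. Lnpk had a peak of both libraries within 1 kb, but the peaks stood 1000 bp apart and made no consensus region. The fold at Lnpk was 3.30 in replicate 1 and 4.69 in replicate 2.

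Each cluster sat in a stretch free of consensus regions, of 464.1 kb for HoxA, 689.0 kb for HoxB, 491.5 kb for HoxC and 1000.7 kb for HoxD. Of the 25434 such stretches in the genome, 1125 were as long for HoxA, 814 for HoxB, 1077 for HoxC and 560 for HoxD. Their median was 7.1 kb and the longest 16576.4 kb, so stretches of this length were not particular to Hox clusters. The share of bases in stretches as long was not computed. Of the 8 regions that bound the Hox stretches, 4 had their summit within 1.5 kb of the start of a protein-coding gene. The farthest of the 4 was at 1377 bp, at Smug1. The same share over all consensus regions was not counted, so no excess can be read from it. The HoxA stretch ended 142.3 kb from the cluster at Skap2, an adaptor protein of myeloid cells, with the summit 754 bp into the gene and folds of 15.2 (replicate 1) and 10.04 (replicate 2). The HoxB stretch ended 117.8 kb away at Atp5g1, a subunit gene of the mitochondrial ATP synthase (fold 11.2 and 6.36), and the HoxC stretch 249.4 kb away at its relative Atp5g2 (fold 8.88 and 5.02). On its other side the HoxC stretch ended at Smug1, a DNA repair enzyme, at 126.4 kb (fold 5.41 and 5.58). The other bounds lay 216.5 kb past Hoxa13 and 397.2 kb past Hoxb1, with the nearest gene starts, those of Hibadh and Snx11, 162765 and 11794 bp away. The HoxD stretch ran 842.1 kb past Hoxd1 to a region 51633 bp from the start of Hnrnpa3. The stretches also held the protein-coding genes Evx1 at HoxA, Skap1 at HoxB, Calcoco1 at HoxC and Mtx2 at HoxD.

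The clusters also hold 46 other annotated genes that lie wholly inside them, most of them noncoding. Within 1 kb of a TSS, 0 of these 46 had a consensus region, against 17.7% of all other annotated genes of every type, 6 had a peak of replicate 1, against 25.6%, and 0 a peak of replicate 2, against 20.0%. The 6 were short annotated RNA segments of HoxA, such as Gm27868, which lies beside the Hoxa2 peak, and Gm27817, whose start was 15 bp from the Hoxa11 summit. Neighbouring segments can share 1 peak, so the 6 are not independent calls. None of the 7 miRNA genes of the clusters had a peak of either list within 1 kb.

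Hox clusters are rich in CpG and poor in repeats, and whether either feature bears on the RBPJ regions was not tested. Repeats masked 18.2% of the clusters, against 36.4% of the genome, GC content was 49.3%, against 41.7%, and there were 24.4 CpG per kb, against 8.26. A promoter was called CpG-rich when the 300 bases around the TSS (250 before it and 50 after) had at least 50% GC and an observed to expected CpG ratio of at least 0.6, averaged over the TSSs of a gene. That held for 24 of 39 Hox genes (61.5%), against 43.1% of all genes. Among the CpG-rich Hox genes, 0 of 24 had a consensus region within 1 kb, against 55.6% of all CpG-rich genes. In replicate 1 it was 1 of 24 (Hoxa5), against 72.9%, and in replicate 2 it was 1 of 24 (Hoxc8), against 61.3%. The peaks themselves were not in GC-rich sequence in replicate 1, where the 201 bases around the summits had 26.4% to 54.7% GC and a median of 36.6%, against a median of 41.8% over the list. In replicate 2 the median was 48.5%, against 45.3%. Chromatin accessibility, histone marks and Hox transcripts were not analysed here, and their part in these counts was not tested.

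RBPJ binds DNA at the core TGGGAA, with GTGGGAA as a longer form that contains it. Both strands were searched within 100 bp of each summit. TGGGAA occurred at 1 of 10 cluster peaks of replicate 1, against 17.2% of its list, and at 0 of 4 of replicate 2, against 18.3%. The 1 peak was that of Hoxd3 in Haglr, which had 2 matches, 1 of them also GTGGGAA (3.77% of the list), and both lay outside the called peak. It is shown for that reason (chr2:74749292-74749492, plus strand), with the matches, here read as the reverse complement TTCCCA, in capitals.
Hoxd3 (Haglr), replicate 1: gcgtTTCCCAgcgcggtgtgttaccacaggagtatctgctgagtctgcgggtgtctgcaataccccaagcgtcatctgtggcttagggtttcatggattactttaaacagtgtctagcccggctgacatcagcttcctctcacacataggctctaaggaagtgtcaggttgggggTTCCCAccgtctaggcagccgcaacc

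Motifs of other factors were searched in the same windows, where the number of peaks is too small to show scarcity or excess. The PU.1 motif GAGGAAGT was at 0 of 10 cluster peaks of replicate 1, against 3.58% of its list, and at 0 of 4 of replicate 2, against 4.11%. The CTCF core was at 0 of 10 and 0 of 4, against 0.846% and 0.525%. The AP-1 motif TGANTCA was at 2 of 10 in replicate 1, near Hoxa9 and Hoxa11, against 7.73%, and at 0 of 4 in replicate 2, against 7.49%. The CEBP motif TTGCNNAA was at 2 of 10 in replicate 1, at Hoxa5 and Hoxa9, against 11.4%, and at 1 of 4 in replicate 2, at Hoxd9, against 11.5%. A match is a stretch of letters and not a measured site.

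Several Hox promoters hold the RBPJ core. No library called a peak over any Hox promoter window of 300 bases, with or without the core. The same share over all windows that hold the core was not counted, so nothing about the core can be read from it. In the 300 bases around the TSSs, TGGGAA was present for 9 of 39 Hox genes (23.1%), against 32.3% of all genes, namely Hoxa4, Hoxa6, Hoxa9, Hoxa13, Hoxb2, Hoxb7, Hoxc11, Hoxc13 and Hoxd3. Per TSS it was 9 of 55 Hox windows (16.4%), against 24.3% of all windows. The longer GTGGGAA was present for 1 of 39 (2.56%), against 8.56%. That gene was Hoxc13, a gene of hair and nails, which has 2 copies upstream, while its nearest consensus region lay 242.1 kb away and its nearest peak of replicate 2 lay 68.8 kb away. The 250 bases before its TSS are shown for the letters (chr15:102920853-102921102, plus strand, GTGGGAA in capitals).
Hoxc13 upstream: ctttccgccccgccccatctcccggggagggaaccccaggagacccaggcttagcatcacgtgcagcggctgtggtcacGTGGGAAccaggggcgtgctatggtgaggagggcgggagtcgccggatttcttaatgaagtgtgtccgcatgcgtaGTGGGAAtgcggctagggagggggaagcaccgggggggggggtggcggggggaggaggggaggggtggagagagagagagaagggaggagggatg

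Relatives of the Hox genes outside the clusters also had few regions. Of 15 ParaHox and Hox-linked homeobox genes, among them Cdx1, Cdx2, Pdx1 and Meox1, 0 had a region within 1 kb in the consensus or in either list, which allows a share of up to 20%, against 33.7% of all genes for the consensus. Of 42 other developmental homeobox genes, 1 had a consensus region, Isl2, a LIM homeobox gene of motor neurons, whose folds were 4.28 (replicate 1) and 5.02 (replicate 2). In single lists 7 of these 42 genes (16.7%) had a peak of replicate 1, against 46.1% of all genes, and 4 (9.52%) a peak of replicate 2, against 37.5%.

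The partners and regulators of Hox proteins were counted in the same way. Of 9 TALE-class cofactors, the homeodomain proteins with which HOX proteins bind DNA, 4 had a consensus region (44.4%; Wilson 95% interval, 18.9% to 73.3%), against 33.7% of all genes. Meis1 reached folds of 8.63 (replicate 1) and 10.04 (replicate 2), Pknox1 9.68 and 8.37, and Pbx2 4.57 and 5.02. Meis2, Meis3 and Pbx3 were among those without a consensus region, though each had a peak of replicate 2 within 1 kb. In single lists, 5 of the 9 cofactors (55.6%) had a peak of replicate 1, against 46.1% of all genes. For replicate 2 it was 7 of 9 (77.8%), against 37.5%. Of 16 genes on the MLL and Trithorax side, which keep Hox genes active, 13 had a consensus region (81.3%; 57.0% to 93.4%), against 33.7%. Kmt2a, which encodes the methyltransferase MLL, reached folds of 32.7 (replicate 1) and 129.2 (replicate 2), and 129.2 is the highest fold of the replicate 2 list. What set the libraries apart there was not tested, and neither was a local artefact of replicate 2. Rbbp5, a core subunit of the same complexes, had 14.5 and 13.4, Aff1 14.2 and 9.37, and Kmt2b 7.36 and 7.03. Dpy30, Kdm6b and Mllt3 had no consensus region within 1 kb. In that window Dpy30 had peaks of both libraries that did not overlap, and Kdm6b had a peak of replicate 1. In single lists, 15 of these 16 genes (93.8%) had a peak of replicate 1, against 46.1% of all genes. For replicate 2 it was 14 of 16 (87.5%), against 37.5%.

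Of 25 Polycomb subunits, which hold Hox genes silent, 9 had a consensus region (36.0%; 20.2% to 55.5%), against 33.7% of all genes. In single lists the count was 19 of 25 (76.0%) in replicate 1, against 46.1%, and 14 of 25 (56.0%) in replicate 2, against 37.5%. Mtf2 reached folds of 9.64 (replicate 1) and 10.4 (replicate 2), Jarid2 10.4 and 7.70, Eed 7.36 and 6.69, and Phc2 6.85 and 6.60. Cbx2, Cbx6 and Cbx7 were among those without a consensus region, and Cbx7 had a peak of replicate 1 within 1 kb. The lists were described by their counts beside those of all genes, and no test was made of any difference between them. Among all genes with a CpG-rich promoter the share was 55.6% for the consensus, 72.9% in replicate 1 and 61.3% in replicate 2. The promoter class of the listed genes was not counted, so a contrast with all genes is not particular to regulators of Hox genes. A region near a gene says nothing of whether the gene was expressed, which was not measured in these libraries.

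**Figure D4:**
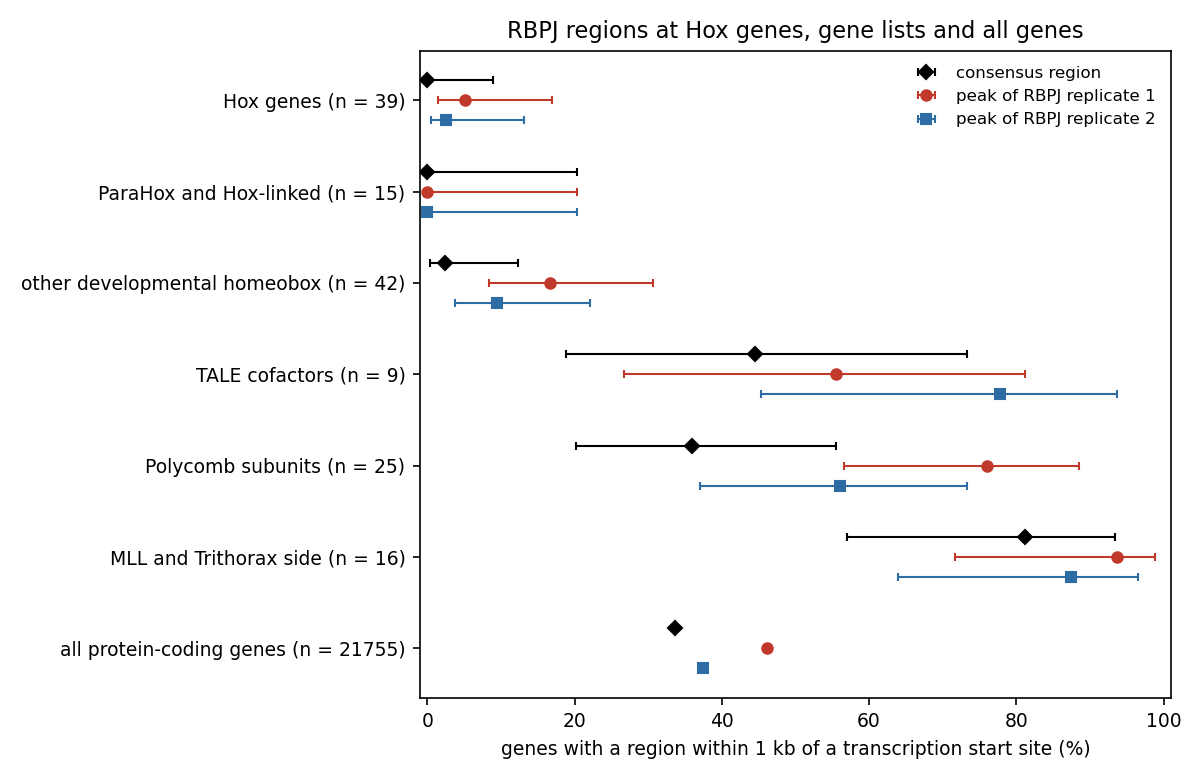
Horizontal axis, percentage of genes with an RBPJ region at most 1 kb from a TSS, for the Hox genes, 5 lists of related genes or regulators and all protein-coding genes (bottom), with diamonds for consensus regions, circles for replicate 1 and squares for replicate 2. Bars are Wilson 95% intervals. The Hox genes stand at 0 of 39 for the consensus, against 33.7% of all genes.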

How the data were processed

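RBPJ HT-ChIPmentation was measured in 2 libraries with 2 input libraries. Per the study's methods and the submitters' processing notes, the authors demultiplexed with bcl2fastq (2.20.0.422) and CASAVA, then used cutadapt for trimming, Bowtie2 for alignment to mm10, SAMtools for filtering and MACS3 for peak calling in each library against input at q 0.05. The deposited lists give the fold enrichment (a ratio over background), the −log10 p and −log10 q values, a display score, which was not used, and the summit offset. The reads behind each list are unknown here. Coordinates are 1-based on GRCm38, the assembly of mm10, with basic GENCODE vM21 TSSs. Genes of chromosome Y, which had no peak in either list, were left out of the gene background.

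Consensus regions merged overlapping peaks (minimum 1 bp) with at least 1 peak of each library, and a gene counted when a region came within 1000 bp of a TSS. Clusters, flanks of 100 kb, distances, base content and motifs were described beside the same over the genome, all genes or the whole lists. Because the RefSeq promoter table held 22 of the 39 Hox genes (56.4%), promoter sequence was read from the GRCm38 assembly at the GENCODE TSSs. The limits for a CpG-rich promoter, at least 50% GC and a ratio of 0.6, were set after the files had been seen. Named were all Hox genes with a peak within 1 kb, all peaks inside clusters and, per list, up to 4 genes ranked by the lower of their 2 folds and up to 3 without a region, and 1 gene that this rule names is not reported here. The members and lists were chosen with earlier results of these data known, and no test between groups was run. Intervals are Wilson or exact Poisson at 95%. The alternatives were a stricter −log10 q of 5, other windows, overlap rules and flanks, and each library alone. The counting steps were tested on simulated data. Calculations used SciPy 1.17.1, pandas 2.3.3 and numpy 2.4.6 in Python 3.11.15, and figures matplotlib 3.10.9.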

Additional observations from a re-analysis of the deposited data

How the results depend on the processing

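No paired analysis was possible because the inputs, which share replicate numbers with the RBPJ libraries, entered only through the peak calling. Of 84 values recomputed under other settings, 65 stayed within 1.5 times the count given or, for densities, within 1 SD between the libraries. With single libraries in place of the consensus (without replicate 1 or without replicate 2), Hox genes with a region within 1 kb numbered 1 to 2 in place of 0, cluster regions 4 to 10 in place of 0, with a density of 0.456 to 0.507 times that of the genome, and flank regions 6 in both in place of 1, with a density of 0.187 to 0.420 times that of the genome. The same settings gave 5 to 7 of 9 TALE cofactors, 14 to 19 of 25 Polycomb genes and 4 to 7 of 42 other homeobox genes. The share of all protein-coding genes rose as well, from 33.7% in the consensus to 46.1% in replicate 1 and 37.5% in replicate 2. Flanks of 50 kb held 0 consensus regions, and flanks of 200 kb held 5, with a density of 0.325 times that of the genome. Of the other homeobox genes, 4 had a consensus region within 3 kb and 0 when summits had to lie within 100 bp. The Hox count stayed at 0 in the alternatives that required both libraries, but most of these could not raise it. Stricter rules only remove regions, and a window of 3 kb does not reach the nearest consensus region, 61.8 kb from a Hox TSS. Such fixed values of 0 are among the 65 that stayed. That there were 2 libraries and an unknown read depth limits every value, and no peak in a list does not show an absence of binding.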
